A study of Mus musculus with 12 samples.

Results

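The NRF2 antioxidant response was followed through 8 transcripts in whole mouse kidney: Nfe2l2, Keap1, Nqo1, Gclc, Gclm, Txnrd1, Gsr and Srxn1. They were found by gene symbol among the 40213 genes of 12 bulk RNA-seq libraries, and all 8 passed the filter on low counts. Their lowest value in any library was 330 counts, for Nqo1. All libraries came from kidneys of C57BL/6 mice, in 3 groups of 4. Control animals had saline by intraperitoneal injection and a normal diet. The chronic kidney disease (CKD) group had the same saline and a diet with 2% adenine, a purine whose metabolite forms crystals in renal tubules. The colchicine group had adenine in the diet and colchicine, an alkaloid that binds tubulin, injected intraperitoneally at a daily 0.3 mg/kg. Its 4 libraries are labelled with 2, 3, 4 and 5% adenine in replicates 1 to 4, whereas the series' design text names a single adenine model. Within that group, colchicine replicate and labelled adenine percentage cannot be told apart. As all CKD libraries are labelled 2%, colchicine and labelled adenine cannot be told apart against CKD either, except in colchicine replicate 1. Differences called lower or higher with colchicine are to be read with this limit. The titles call the libraries replicates, and biological replicates only in the colchicine group, without naming the animals. P-values cover only the spread among these libraries, which may be technical.

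NRF2, encoded by Nfe2l2, is a transcription factor that pairs with small MAF proteins and binds antioxidant response elements in DNA. In unstressed cells KEAP1 holds NRF2 and presents it to a CUL3 ubiquitin ligase for destruction; oxidants and electrophiles modify KEAP1 and let NRF2 accumulate. The control is therefore largely at the level of protein, which transcript counts do not measure. Its targets make and recycle glutathione, reduce thioredoxin and peroxiredoxins, detoxify quinones and supply NADPH. In kidney, proximal tubule cells carry a large part of this machinery.

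Library totals lay between 22200909 and 38253100 counts. The 13 mitochondrially encoded protein transcripts took 40.8 to 45.9% of the counts in control, 16.5 to 17.02% in CKD and 14.3 to 21.3% with colchicine. Colchicine replicate 1 stood apart from the rest of its group: chi-square per degree of freedom over genes was 57.2 to 75.5 against the other colchicine libraries, which differed from each other by 20.7 to 44.8. It was 6.76 to 32.3 within control and CKD, and no pair of libraries looked like the same library deposited again. Kidney identity was taken from the labels. In the marker lists none of the listed genes was at 0 in all libraries, which a single read in 1 library would satisfy. Levels are given as counts per 1000000 (CPM) after scaling by the trimmed mean of M-values (TMM). Fold changes come from 1 edgeR quasi-likelihood fit to all 12 libraries, and a gene was called at a Benjamini-Hochberg adjusted p below 0.05 over the 17841 genes tested.

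Promoter sequence was available from RefSeq (build GRCm38.p6) for 6 of the 8 members: Nfe2l2, Keap1, Nqo1, Gclm, Txnrd1 and Srxn1. Stretches with a match to a searched motif are shown because the members carrying one did not move together in the comparisons that follow. Both strands of the 250 bases before each start were searched for TGACNNNGC, the core of the antioxidant response element. They were also searched for TGANTCA, an AP-1-like site, and for TGANTCAGC. The last contains TGANTCA and, where its N is C, also fits TGACNNNGC. Each line reads 5′ to 3′ in the direction of the gene, with the matched letters in capitals.
Nfe2l2, chr2:75704875-75704913, minus strand: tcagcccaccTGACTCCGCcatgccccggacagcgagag
Gclm, chr3:122245403-122245451, plus strand: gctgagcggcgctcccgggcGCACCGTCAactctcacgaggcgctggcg
Txnrd1, chr10:82859094-82859142, plus strand: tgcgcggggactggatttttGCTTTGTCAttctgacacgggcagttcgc
Srxn1, chr2:152105402-152105507, plus strand: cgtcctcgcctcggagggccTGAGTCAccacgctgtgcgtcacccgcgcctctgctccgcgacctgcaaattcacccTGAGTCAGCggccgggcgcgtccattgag
The Nfe2l2 match to TGACNNNGC begins 240 bases before the start. Those in Gclm and Txnrd1 begin 134 and 92 bases before it and lie on the opposite strand, so the capitals show the reverse complement. In Txnrd1 the match is in the middle one of 3 start sites. Srxn1 has TGAGTCA at 102 and 45 bases before its start, the nearer one extended to TGAGTCAGC. TGAGTCAGC differs from TGACNNNGC only by a G in place of C. Whether it serves as an antioxidant response element was not tested. Of 32851 windows of the same length, 10.2% held TGACNNNGC, 6.75% held TGANTCA and 1.02% held TGANTCAGC. None of the 3 motifs was matched in the windows of Keap1, Nqo1 and the other starts of Txnrd1. A match describes letters in a window and shows no binding. A missing match covers only these 250 bases and does not show that the gene lacks an element elsewhere.

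In CKD kidneys the transcript of NRF2 itself was higher than in control, while most of its targets among the 8 members were lower. Of the 8 members, 1 was called higher (Nfe2l2) and 5 were called lower (Nqo1, Gclc, Gclm, Txnrd1 and Gsr); Keap1 and Srxn1 were not called. Over all genes tested, 34.1% were called higher and 33.4% lower in this comparison, 67.4% in either direction, so the share of members called (6 of 8) was near the background. The median log2 fold change was -0.63 over the members and 0.04 over all genes. The groups did not overlap for 6 of the 8 members, against 66.2% of all genes. In whole tissue, fewer cells of a type and less RNA per cell cannot be told apart. Of 10 proximal tubule markers, all 10 were lower in CKD, and their summed level was 33650 to 36513 CPM in control and 966.6 to 1249 CPM in CKD. Their part in the members' differences was not tested.

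**Figure D1:**
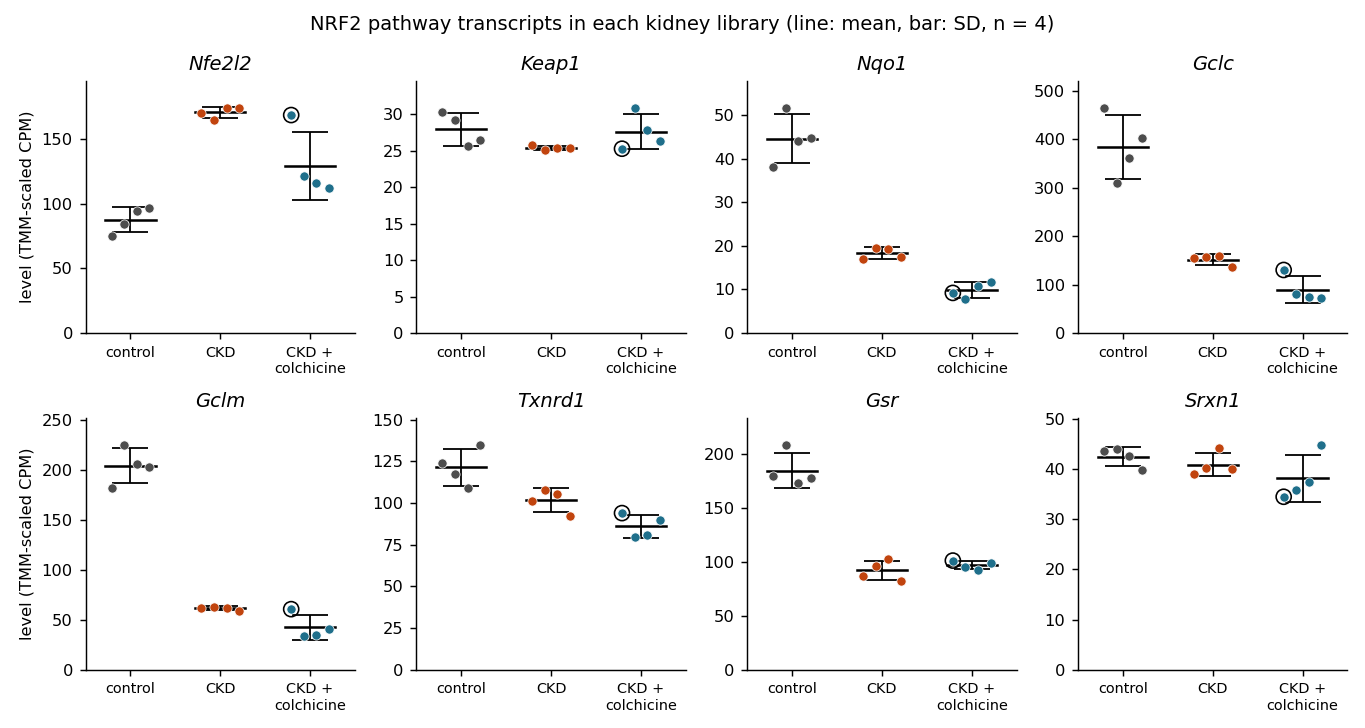
TMM-scaled CPM (vertical axes, from 0) of the 8 members in each library of the 3 groups; points are libraries, the line is the mean and the bar the SD of 4. Colchicine replicate 1 is ringed; its Nfe2l2 (168.5 CPM) and Gclc (130.2 CPM) stand above the other colchicine libraries, its Nqo1 (9.2 CPM) does not.

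Nfe2l2, the gene of the transcription factor, was at 75.2, 84.6, 94.4 and 96.5 CPM in control, at 170.3, 164.7, 173.6 and 174.0 CPM in CKD, and at 168.5, 121.1, 116.1 and 111.8 CPM with colchicine. Every CKD library lay above every control library, and the CKD libraries lay close together. The level was 1.95-fold higher in CKD than in control (log2 0.96 ± 0.12 SE, edgeR adjusted p = 3.44e-06). Keap1, the sensor that targets NRF2 for degradation, was at 30.4, 29.3, 25.7 and 26.5 CPM in control, at 25.8, 25.1, 25.4 and 25.4 CPM in CKD, and at 25.3, 30.9, 27.9 and 26.4 CPM with colchicine. The ranges overlapped between control and CKD. Its log2 difference between them was -0.14 ± 0.08 (edgeR adjusted p = 0.143).

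Nqo1 encodes a quinone reductase and is a classical readout of NRF2 activity. It was at 38.1, 51.6, 44.1 and 44.8 CPM in control, at 17.1, 19.6, 19.4 and 17.5 CPM in CKD, and at 9.2, 7.8, 10.8 and 11.7 CPM with colchicine. The 3 groups formed 3 separate bands with no overlap. Nqo1 was 2.43-fold lower in CKD than in control (log2 -1.28 ± 0.12, edgeR adjusted p = 1.63e-07).

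Gclc and Gclm encode the catalytic and the modifier subunit of glutamate-cysteine ligase, the rate-limiting enzyme of glutathione synthesis. Gclc was at 464.5, 308.9, 360.5 and 402.1 CPM in control, at 154.0, 156.4, 160.0 and 136.5 CPM in CKD, and at 130.2, 79.9, 74.6 and 72.7 CPM with colchicine. Control libraries were widely spread but all above CKD, and CKD was all above colchicine. Gclm was at 182.4, 225.4, 206.1 and 203.2 CPM in control, at 62.3, 63.2, 61.8 and 58.7 CPM in CKD, and at 60.7, 33.9, 35.05 and 41.05 CPM with colchicine. Here too control stood apart from both adenine groups, but colchicine replicate 1 fell inside the narrow CKD range. In CKD, Gclc was 2.53-fold lower than in control (log2 -1.34 ± 0.17, edgeR adjusted p = 8.1e-06). Gclm was 3.32-fold lower (log2 -1.73 ± 0.15, edgeR adjusted p = 9e-08), the lowest fold change of the 8.

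Gsr encodes glutathione reductase, which returns oxidized glutathione to its reduced form with NADPH. It was at 179.1, 208.3, 172.5 and 177.3 CPM in control, at 86.9, 96.3, 102.5 and 82.3 CPM in CKD, and at 101.0, 95.2, 92.4 and 98.9 CPM with colchicine. Control did not overlap either adenine group, and the adenine groups overlapped each other. The level was 2.00-fold lower in CKD than in control (log2 -1.002 ± 0.08, edgeR adjusted p = 3.78e-08).

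Txnrd1 encodes cytosolic thioredoxin reductase. Its libraries were at 123.7, 117.6, 109.1 and 134.9 CPM in control, at 101.0, 108.0, 105.6 and 92.1 CPM in CKD, and at 93.9, 79.6, 80.8 and 89.5 CPM with colchicine. The highest CKD library came within about 1 CPM of the lowest control library. Txnrd1 was 1.19-fold lower in CKD (log2 -0.26 ± 0.08, edgeR adjusted p = 0.0131). This call was lost with upper-quartile scaling (log2 -0.12, adjusted p = 0.156), with no filter on low counts (log2 -0.20, adjusted p = 0.0851), without control replicate 4 (adjusted p = 0.0506) and without CKD replicate 4 (adjusted p = 0.0515), all in edgeR. With library totals only, Txnrd1 was called in the opposite direction (log2 0.76, edgeR adjusted p = 4.49e-07), where the median of all genes was 1.05.

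Srxn1 encodes sulfiredoxin, which repairs over-oxidized peroxiredoxins. It was at 43.6, 43.9, 42.5 and 39.7 CPM in control, at 39.0, 40.1, 44.2 and 40.0 CPM in CKD, and at 34.5, 35.8, 37.4 and 44.8 CPM with colchicine. All 3 groups overlapped. The log2 difference between CKD and control was -0.05 ± 0.08 (edgeR adjusted p = 0.588).

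Ratios of member transcripts within a library do not depend on the scaling between libraries, and only their differences between groups are read here. The log2 ratio of Nfe2l2 to Keap1 was 1.31, 1.53, 1.88 and 1.86 in control, 2.72, 2.71, 2.77 and 2.77 in CKD, and 2.74, 1.97, 2.06 and 2.08 with colchicine. Control lay below both adenine groups. The mean was 1.10 higher in CKD than in control (exact two-sided permutation p = 0.0286, 0.0514 after adjustment over 9 tests) and 0.57 higher with colchicine than in control (exact p = 0.0286, adjusted 0.0514). It was 0.53 lower with colchicine than in CKD (log2 -0.53, exact permutation p = 0.0857, adjusted 0.110). None of these differences passed 0.05 after adjustment.

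The log2 ratio of Txnrd1 to Gsr set thioredoxin reductase beside glutathione reductase. It was -0.53, -0.82, -0.66 and -0.40 in control, 0.22, 0.17, 0.04 and 0.16 in CKD, and -0.11, -0.26, -0.20 and -0.14 with colchicine. The 3 groups did not overlap. The mean difference was 0.75 for CKD against control, -0.32 for colchicine against CKD and 0.43 for colchicine against control, each with exact permutation p = 0.0286, the smallest that 4 against 4 libraries allow, and 0.0514 after adjustment. For Gclm to Gclc the differences were -0.40, 0.24 and -0.16, with exact permutation p of 0.114, 0.0571 and 0.429. None of the 9 ratio tests passed 0.05 after adjustment.

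With colchicine, Nqo1 and both subunits of glutamate-cysteine ligase, Gclc and Gclm, were lower again than in CKD. Of the 8 members, 4 were called lower against CKD (Nqo1, Gclc, Gclm and Nfe2l2), 0 were called higher, and 4 were not called. For Gclm and Nfe2l2 the ranges overlapped CKD, and each lost its call in 7 of 12 fits that left out 1 library. The background was 8.24% of all genes lower, 6.79% higher and 15.0% in either direction. The median log2 fold change was -0.32 over the members and 0.03 over all genes. The groups did not overlap for 2 of the members, Nqo1 and Gclc, against 18.2% of all genes.

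Nqo1 was 1.87-fold lower with colchicine than in CKD (log2 -0.90 ± 0.12, edgeR adjusted p = 0.000793). Gclc was 1.70-fold lower (log2 -0.76 ± 0.17, edgeR adjusted p = 0.0122), Gclm 1.44-fold lower (log2 -0.53 ± 0.15, adjusted p = 0.0295) and Nfe2l2 1.32-fold lower (log2 -0.40 ± 0.12, adjusted p = 0.0351). The other members gave log2 differences of -0.24 ± 0.08 for Txnrd1 (edgeR adjusted p = 0.0601), 0.12 ± 0.08 for Keap1 (0.3), -0.10 ± 0.08 for Srxn1 (0.408) and 0.07 ± 0.08 for Gsr (0.546).

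Colchicine replicate 1, the library labelled 2% adenine, stood apart from its group in several of these genes. Its Nfe2l2 and Gclm lay within or beside the CKD range and its Gclc lay below CKD but far above the other colchicine libraries, whereas its Nqo1 was among them. Without it, 5 members were called lower, Txnrd1 being added (log2 -0.29, edgeR adjusted p = 0.0112), and the log2 fold change of Gclc was -1.005. Among all genes tested, 3519 of 18140 were lower in that fit, against 1470 of 17841 with all libraries. Leaving out any 1 of the CKD libraries, or colchicine replicate 2, 3 or 4, left 2 members called lower, Nqo1 and Gclc. Calls fell among all genes too in these fits, to between 573 and 1252 lower. The changes in the number of members called are therefore not read as particular to the members. Nqo1 was called in all 12 fits that left out 1 library, with log2 fold changes from -0.997 to -0.801, and Gclc in all 12, from -1.005 to -0.69.

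**Figure D2:**
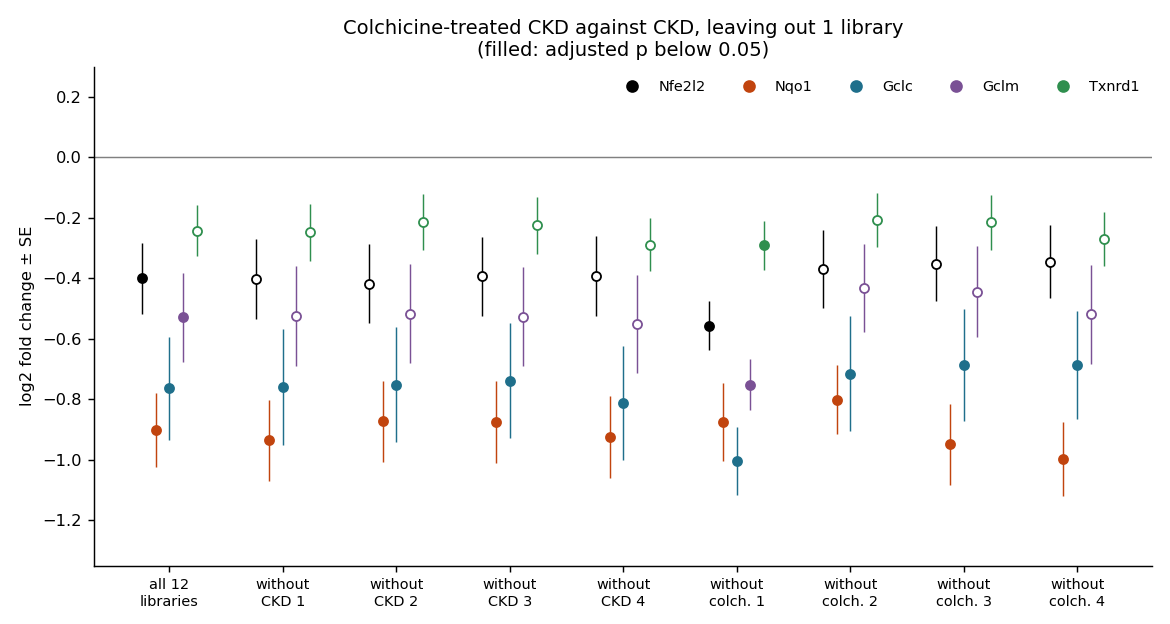
Log2 fold change ± SE (vertical axis) of 5 members for colchicine-treated CKD against CKD, with all 12 libraries and without each of the 8 libraries compared; filled points have an edgeR adjusted p below 0.05. Nqo1 and Gclc stay filled throughout, Nfe2l2 and Gclm are filled with all libraries and without colchicine replicate 1, and Txnrd1 is filled only without colchicine replicate 1.

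Reading the colchicine group at its 2% label, with a slope on the labelled adenine percentage, left 1 member called lower against CKD, Nqo1 (log2 -1.13). Among all genes, 616 of 17841 were lower in that fit. Each percentage has 1 library, and the library at 2% is replicate 1, so the slope cannot separate colchicine from labelled adenine. In that fit the log2 fold changes were -0.40 for Gclc (edgeR adjusted p = 0.21), -0.28 for Gclm (0.416) and -0.14 for Nfe2l2 (0.604). The summed level of the injured tubule markers was 18118 CPM in colchicine replicate 1 and 18039 to 20966 CPM in CKD, and 9933 CPM in the lowest colchicine library. That of the proximal tubule markers was 577.5 to 935.1 CPM with colchicine, against 966.6 to 1249 CPM in CKD, and 5 of those 10 markers were called lower. Macrophage markers summed to 1780 to 1839 CPM in CKD and 1197 to 1800 CPM with colchicine, with 4 of 8 called lower. The part of these markers in the differences between colchicine and CKD was not tested.

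Colchicine-treated kidneys also had a higher Nfe2l2 level and lower levels of Nqo1, Gclc, Gclm, Gsr and Txnrd1 than control kidneys. Nfe2l2 was 1.48-fold higher (log2 0.56 ± 0.12, edgeR adjusted p = 0.000571). Of all genes, 37.1% were higher and 33.4% lower in this comparison, 70.5% in either direction, and 1 member was higher and 5 were lower. The groups did not overlap for 6 members, against 62.5% of all genes. Gclm was 4.79-fold lower (log2 -2.26 ± 0.15), Nqo1 4.54-fold (log2 -2.18 ± 0.12) and Gclc 4.30-fold (log2 -2.10 ± 0.18), with edgeR adjusted p of 4.88e-09, 4.5e-10 and 7.68e-08. Gsr was 1.90-fold lower and Txnrd1 1.41-fold lower (log2 -0.93 ± 0.08 and -0.50 ± 0.08, edgeR adjusted p = 7.91e-08 and 6.95e-05). Keap1 and Srxn1 gave log2 differences of -0.02 ± 0.08 (edgeR adjusted p = 0.846) and -0.16 ± 0.08 (0.11). Srxn1 was called lower without colchicine replicate 4 (log2 -0.28, edgeR adjusted p = 0.004) and with the slope on labelled adenine (log2 -0.34, 0.00431). This comparison shares its control libraries with the comparison of CKD and control, and its colchicine libraries with that of colchicine and CKD.

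**Figure D3:**
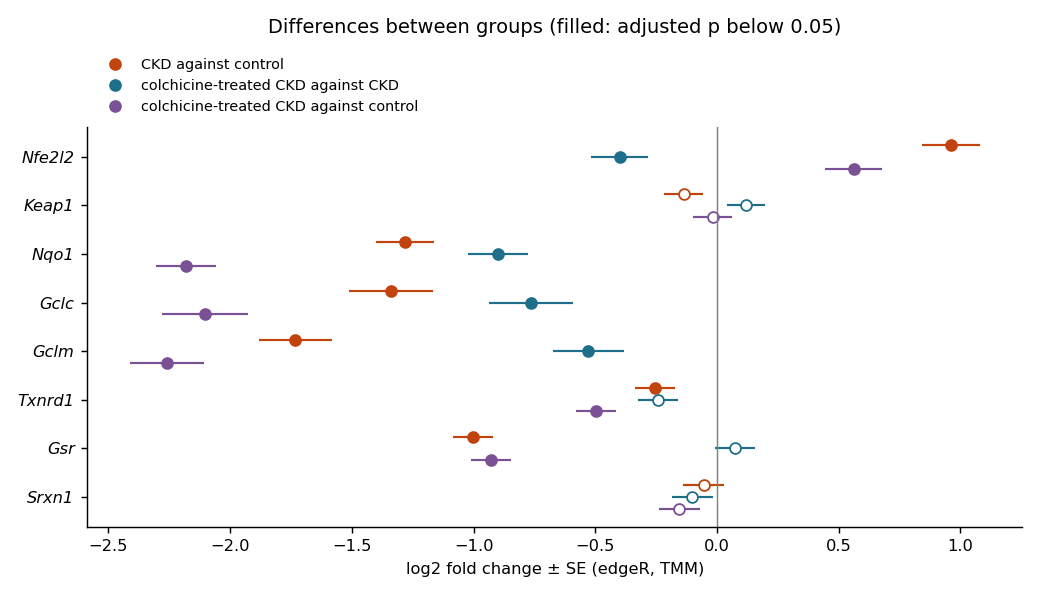
Log2 fold change ± SE (horizontal axis) of each member in the 3 comparisons; filled points have an edgeR adjusted p below 0.05. Nqo1, Gclc and Gclm lie below 0 in every comparison, Nfe2l2 lies above 0 against control and below 0 for colchicine against CKD, and Keap1 and Srxn1 are open in all 3.

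The share of mitochondrial transcripts differed between control and the adenine groups, and the directions were read under other scalings as well. With mitochondrially encoded transcripts left out and TMM kept, 1 member was higher and 5 were lower in CKD against control. Nfe2l2 was then at log2 0.965, Nqo1 at -1.278 and Gclm at -1.728. Of all 17567 genes in that fit, 6039 were higher and 5941 lower, with a median of 0.03. The median log2 fold change of all genes for CKD against control was 0.04 with TMM, 0.04 with DESeq2 size factors, 0.17 with upper-quartile scaling and 1.05 with library totals only. With library totals, Nfe2l2 was at log2 1.97, Nqo1 at -0.27, Gclc at -0.32 and Gclm at -0.72; Gclc was then no longer called (edgeR adjusted p = 0.0866). In the same fit Keap1 (0.88), Txnrd1 (0.76), Srxn1 (0.96) and Gsr (0.01) lay above 0, and of these Gsr was not called (adjusted p = 0.927). Relative to the median of all genes under the same scaling, Nfe2l2 was higher by 0.92 and Nqo1, Gclc, Gclm, Gsr and Txnrd1 were at -1.32, -1.37, -1.77, -1.04 and -0.29. The order of the members was kept by these 4 scalings, but the direction of Txnrd1, Gsr, Keap1 and Srxn1 against control was not. For colchicine against control the median moved likewise, from 0.10 with TMM to 1.14 with library totals and 0.30 with upper-quartile scaling. Between CKD and colchicine the 4 scalings gave medians of 0.03, 0.01, 0.09 and 0.06.

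**Figure D4:**
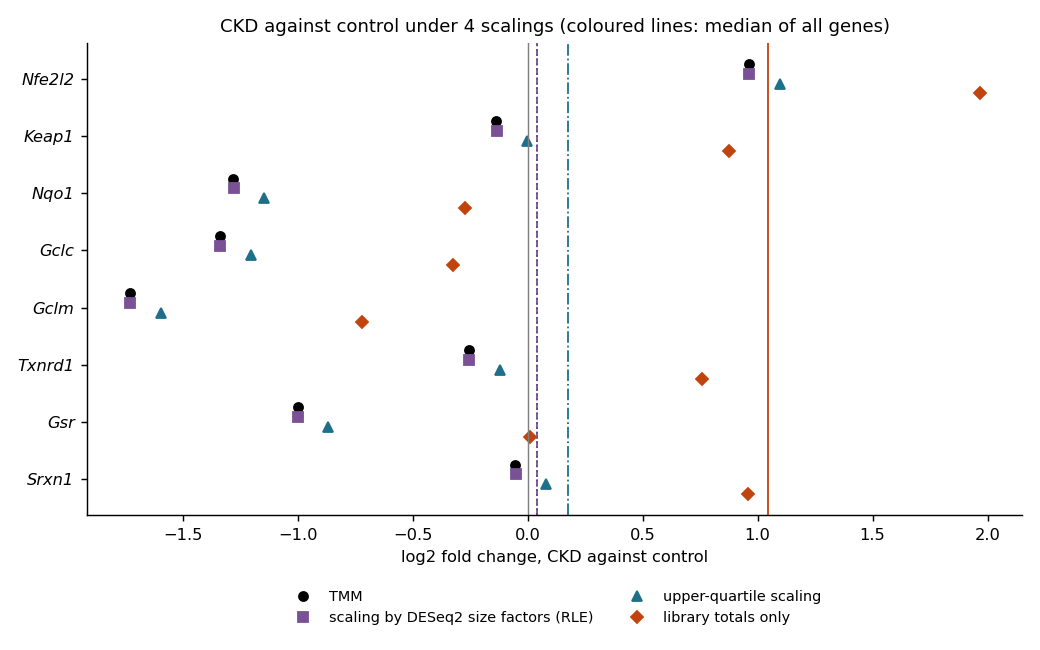
Log2 fold change, CKD against control (horizontal axis), of each member under 4 scalings; coloured vertical lines give the median of all genes under the same scaling. With library totals the median sits at 1.05 and the members shift with it, so that Gsr lies at 0.01 and Keap1, Txnrd1 and Srxn1 above 0.

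Further genes with roles in or around the pathway were taken from 8 lists by role, 86 symbols in all, of which 85 were tested. Whether each of them is a target of NRF2 was not tested, so their counts do not measure NRF2 activity. In CKD against control 17 were called higher and 53 lower, beside 34.1% and 33.4% of all genes tested, and the median log2 fold change was -0.79, beside 0.04 over all genes. With colchicine against CKD 2 were higher and 19 lower, beside 6.79% and 8.24% of all genes, with a median of -0.09 beside 0.03. With colchicine against control 15 were higher and 54 lower, beside 37.1% and 33.4%, with a median of -0.73 beside 0.10. These lists were chosen with earlier results of these data known, and no test of a list as a whole was made. The same shares of all genes are the background of the counts by role that follow.

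**Figure D5:**
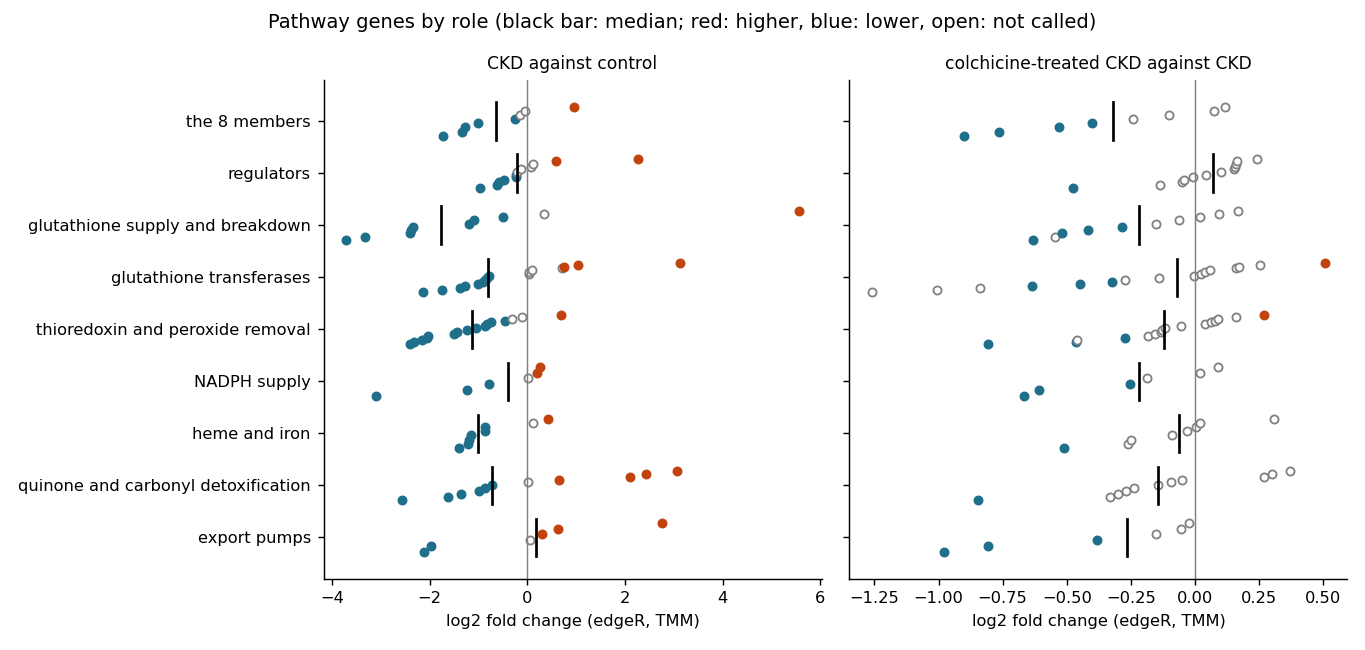
Log2 fold change (horizontal axes, different scales) of every tested gene of the 8 members and the 8 role lists in CKD against control and in colchicine-treated CKD against CKD; black bars are medians, filled points are called and open points are not. Slc7a11 is the point at 5.56 on the left, in the row of glutathione supply and breakdown, whose median is -1.76.

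Among the regulators, 2 of 12 were higher and 6 lower in CKD, beside 34.1% and 33.4% of all genes. Maff, a small MAF partner of NRF2, was at 3.00 CPM in control and 14.3 CPM in CKD (log2 2.27 ± 0.17). Bach1, a repressor that competes for the same elements, was also higher (log2 0.59 ± 0.09), and Mafg, another small MAF gene, was lower (log2 -0.23 ± 0.08, edgeR adjusted p = 0.0176). Sqstm1, whose product p62 binds KEAP1, was lower (439 against 226 CPM, log2 -0.96 ± 0.07). Cul3, the scaffold of the ligase that KEAP1 uses, was lower in CKD (log2 -0.62 ± 0.13) and again with colchicine (log2 -0.48 ± 0.13, edgeR adjusted p = 0.0234), the only one of the 12 regulators called between them. In the colchicine libraries it was at 135.8, 88.3, 83.7 and 97.1 CPM, against 132.0 to 149.1 CPM in CKD, so that replicate 1 again lay with CKD.

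Glutathione supply and breakdown had 8 of 10 genes lower and 1 higher in CKD. The exception was Slc7a11, the cystine importer subunit that feeds glutathione synthesis. It was at 0.41, 0.31, 0.41 and 0.12 CPM in control (7, 6, 6 and 2 counts) and at 14.7, 17.3, 13.8 and 12.97 CPM in CKD. All CKD libraries lay far above control, a 47.3-fold difference that rests on few control counts (log2 5.56 ± 0.22, edgeR adjusted p = 1.27e-11). With colchicine it was at 8.97, 8.50, 11.1 and 9.36 CPM, lower than in CKD without overlap (log2 -0.63 ± 0.14, adjusted p = 0.00984). Gss, glutathione synthetase, was at 265 CPM in control, 50.4 in CKD and 37.8 with colchicine (log2 -2.39 ± 0.08 and -0.42 ± 0.08). Ggct, which acts in glutathione breakdown, was lower in CKD (log2 -3.31 ± 0.11), and the median of the list was -1.76. With colchicine against CKD 4 of the 10 were lower, including the peptidase Anpep (log2 -0.52 ± 0.09).

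Of 16 glutathione transferases, 9 were lower in CKD and 3 higher; their sequences are alike, so their shares of reads are uncertain. Gstt2 and Gsta3 were lower (log2 -2.14 ± 0.10 and -1.74), and Mgst1 was higher (log2 0.76 ± 0.08). Gsta3 was lower again with colchicine than in CKD (log2 -0.63 ± 0.12), as was Mgst1 (log2 -0.32 ± 0.08). Thioredoxin and peroxide removal had 13 of 16 genes lower and 1 higher in CKD. Sod2, the mitochondrial superoxide dismutase, was at log2 -2.06 ± 0.08, and the peroxiredoxin Prdx5 at -2.32 ± 0.10. Cat, catalase, fell from 1428 CPM in control to 272 in CKD and 155 with colchicine (log2 -2.39 ± 0.13, then -0.81 ± 0.12, edgeR adjusted p = 3.04e-10 and 0.00173).

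Of the 6 NADPH supply genes, 3 were lower and 2 higher in CKD, beside 33.4% and 34.1% of all genes. Me1, malic enzyme, was at 885 CPM in control, 103 in CKD and 67.5 with colchicine (log2 -3.10 ± 0.12 and -0.61 ± 0.11). Idh1, cytosolic isocitrate dehydrogenase, was lower in both steps (log2 -1.24 ± 0.15 and -0.67 ± 0.15). G6pdx, the entry enzyme of the pentose phosphate pathway, was higher in CKD (log2 0.19 ± 0.06, edgeR adjusted p = 0.0129) and lower with colchicine than in CKD (log2 -0.25 ± 0.06, adjusted p = 0.0176).

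In heme and iron handling 6 of 8 genes were lower in CKD, and the 1 called higher was Hmox1, heme oxygenase, a target that BACH1 represses. It was at 28.2 ± 4.29 CPM in control, 38.01 ± 3.22 in CKD and 37.2 ± 5.00 with colchicine (SD, n = 4), a log2 difference of 0.43 ± 0.11 between CKD and control (edgeR adjusted p = 0.0038). Quinone and carbonyl detoxification had 6 of 11 lower and 4 higher in CKD, beside 33.4% and 34.1% of all genes. Akr1b8, an aldo-keto reductase with close relatives, was at 6.72 CPM in control and 36.2 in CKD (log2 2.43 ± 0.15). Ugt1a6a, a glucuronosyltransferase that shares exons with its family, was at 2.83, 12.2 and 6.77 CPM in the 3 groups, higher in CKD and lower with colchicine than in CKD (log2 -0.85 ± 0.20, edgeR adjusted p = 0.0153). Cbr3, a carbonyl reductase chosen after its values were seen, was 8.35-fold higher in CKD (log2 3.06 ± 0.22).

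Export pumps carry glutathione conjugates and other products out of the cell. In CKD 3 of 6 were higher and 2 lower, beside 34.1% and 33.4% of all genes. Abcc3, a basolateral pump, was at 2.90 CPM in control and 19.9 in CKD (log2 2.77 ± 0.16). The apical pumps Abcg2 and Abcc2 were lower in CKD (log2 -2.11 ± 0.22 and -1.97) and lower again with colchicine than in CKD (log2 -0.81 ± 0.21 and -0.98 ± 0.22, edgeR adjusted p = 0.0254 and 0.0131). Abcc4 was higher in CKD (log2 0.30 ± 0.09) and lower with colchicine (log2 -0.38 ± 0.09). The 2 genes of all lists called higher with colchicine than in CKD were the transferase Gstm2 (log2 0.51 ± 0.14, edgeR adjusted p = 0.0263) and the peroxiredoxin Prdx2 (log2 0.27 ± 0.07, adjusted p = 0.0234), both named after their values were seen. With the replicate number as a block 0 of the listed genes were called higher in this comparison, and leaving out 1 library at a time gave 0 to 6. Gpx2, a glutathione peroxidase, had 1, 2 and 8 counts over the libraries of control, CKD and colchicine and was not tested.

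The members differed among themselves in pattern, measured as the root mean square difference of log2 CPM over the 12 libraries, each gene centred on its own mean. Among the members, Keap1 and Srxn1 were the nearest pair (0.16), and Nfe2l2 and Gclm the farthest (1.31). Gclc and Gclm, subunits of the same enzyme, were 0.27 apart, and Nqo1 and Gclm 0.30. Among 9903 genes with a mean of 10 CPM or more, those nearest to Nfe2l2 were Mef2a (0.06), Tmem165 (0.08) and Tjp1 (0.09). Those nearest to Keap1 were Ppib (0.06), Upf3a (0.06) and Elp2 (0.06), to Txnrd1 Gtf3c3 (0.06), Zhx2 (0.06) and Ddx52 (0.07), and to Srxn1 Smim30 (0.08), Grb14 (0.09) and Dctn6 (0.09). For Gsr they were Slc25a51 (0.08), Mrps33 (0.08) and Fam149b (0.09), for Nqo1 Rdh16 (0.16), Susd3 (0.16) and Ctbs (0.17). For Gclc they were Peds1 (0.19), Cyfip2 (0.19) and Mia2 (0.19), and for Gclm Nus1 (0.11), Phyhipl (0.11) and Mtfr1 (0.12). All share the same libraries and scaling, so these distances describe likeness only.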

How the data were processed

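RNA was extracted with RNAiso Plus and libraries were made with a CORALL RNA-seq kit, per the labels' protocols. Reads were processed with fastp, STAR and Salmon on GRCm39, per the submitters' processing notes; the sources used here give no versions or settings. Deposited values were taken as the authors' estimated counts (expected counts) per gene, rounded to whole numbers. With edgeR 4.0.16 (R 4.3.3), genes were kept by filterByExpr (minimum count 10), scaled by TMM and fitted with 3 group means in a robust quasi-likelihood model. P-values are two-sided and SE is the log2 fold change over the square root of F. Log2 CPM used a prior count of 2, and ratios added 0.5 to each count. Alternatives were DESeq2 1.42.0, limma-voom (limma 3.58.1), other scalings, no filter, and mitochondrially encoded transcripts left out. Further ones were the 8 libraries compared, a replicate block, a slope on labelled adenine, and leaving out each library. The members and lists were chosen with earlier results of these data known. The rule for names takes the 8 members, the 2 genes with the smallest p of each role and comparison, Hmox1, Slc7a11, Gpx2, G6pdx, Mafg, Bach1 and Sqstm1, and the 3 genes nearest in pattern to each member. The fit was tested on simulated data with a small set of changed genes, in both directions, and the same composition in every library. That setting does not test the scaling between control and the adenine groups.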

Additional observations from a re-analysis of the deposited data

Results flagged for a closer look

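Among 33 groups of 4 values checked for a library far from the rest, 3 were picked out, by Dixon's test, all in colchicine replicate 1, the library labelled 2% adenine; chance picks out about 1 in 20. Nfe2l2 was at 168.5 CPM there, and its gap to the nearest colchicine library was 0.836 of the group's range. Gclc was at 130.2 CPM (0.875 of the range). The log2 ratio of Nfe2l2 to Keap1 was 2.736 (0.857 of the range), beside 2.71 to 2.77 in CKD. The 3 values are not independent, since Nfe2l2 enters both the first and the last.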

How the results depend on the processing

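With library totals only, members called against control were 4 higher and 2 lower for CKD and 4 higher and 3 lower for colchicine. Pathway genes were 42 and 23, and 43 and 29. Of all 17841 genes, this scaling called 13197 higher and 1850 lower for CKD, and 13762 and 1953 for colchicine. Log2 values above 0 in that fit were Keap1 0.877, Txnrd1 0.756, Srxn1 0.957 and Gsr 0.008 for CKD, and Keap1 1.022, Txnrd1 0.536, Srxn1 0.877 and Gsr 0.107 for colchicine; the median of all genes moves with this scaling. For colchicine against CKD, members called lower were 2 with only the 8 libraries compared and 1 with the slope on labelled adenine. Among all genes, colchicine against CKD gave 1071 of 17561 and 616 of 17841 lower in these fits. Pathway genes called higher there were 4 with upper-quartile scaling, 1 without a filter, 1 with the 8 libraries, 1 with the slope and 0 with the replicate block; the cause was not tested. Leaving out 1 library at a time gave 2 to 5 members lower, 0 to 6 pathway genes higher and 9 to 25 lower (9 without CKD replicate 3, 12 without colchicine replicate 3, 25 without colchicine replicate 1). Among all genes the same fits gave 573 to 3519 lower.

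Without 1 library, ratio differences were 0.989 to 1.179 (CKD against control) and 0.392 to 0.647 (colchicine against control) for Nfe2l2 to Keap1, and 0.676 to 0.819, -0.357 to -0.294 and 0.354 to 0.497 for Txnrd1 to Gsr, where 4 against 3 libraries cannot go below an exact p of 0.0571.

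Same-numbered libraries did not deviate together (correlations -0.279 to 0.189, with 1 of 12 best matching its own number). The main fit had been set without pairing, and without a batch term because the labels put all libraries in the same batch. The check of same-numbered libraries cannot show whether they were handled together. The replicate block left 3 members lower with colchicine than in CKD (Nfe2l2 log2 -0.41, edgeR adjusted p = 0.0648), and 694 genes higher and 1062 lower over all genes, against 1212 and 1470.

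Over all genes, colchicine against CKD gave 1764 higher and 1185 lower with upper-quartile scaling, 1502 and 2303 with DESeq2, 392 and 616 with the slope, and 2882 and 3519 without colchicine replicate 1. Colchicine against control gave 8134 and 4849 with upper-quartile scaling, against 6612 and 5964, and CKD against control 13197 and 1850 with library totals, against 6076 and 5952. Nfe2l2 and Gclm against CKD were each not called in 7 fits that left out 1 library. Txnrd1 against CKD was called lower by DESeq2 (adjusted p = 0.0234). Depth was no limit for the members, whose counts were all 330 or more.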

Other observations

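Beside the members, marker lists of other cell types moved between the groups. The background over all genes was 34.1% higher and 33.4% lower in CKD against control. For colchicine against CKD it was 6.79% higher and 8.24% lower. Of 7 fibroblast markers, all 7 were called higher in CKD than in control, with a summed level of 411.7 to 495.2 CPM in control and 3299 to 3905 CPM in CKD; 3 were higher again with colchicine (4099 to 5260 CPM, the highest in colchicine replicate 1). Injured tubule and macrophage markers were called higher in CKD in 8 of 8 genes each, and neutrophil markers in 5 of the 5 tested. Collecting duct markers were lower in 6 of 6 genes (417.1 to 591 CPM in control, 91.97 to 109.9 CPM in CKD), and 2 were lower again with colchicine (60.77 to 72.04 CPM). Of 6 loop of Henle and distal tubule markers, 4 were lower and 1 higher in CKD, and 4 were lower with colchicine than in CKD. Of 5 podocyte markers, 2 were higher and 2 lower in CKD, and 5 of 6 endothelial markers were lower. The part of these shifts in the levels of Nfe2l2 and its targets was not tested.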
